A study of Mus musculus with 8 samples.

Results

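Spen, the 3 CoREST scaffold genes Rcor1, Rcor2 and Rcor3, and 5 genes of the complexes they work in (Ncor1, Kdm1a, Hdac1, Hdac2 and Hdac3) were followed across 8 mouse tumours. The 9 genes were picked by symbol among 55450 genes of the deposited table, and all 9 were among the 16911 genes with enough reads to test. The set was built around the observation that Spen and Rcor2 were lower in tumours marked R, so values of R tumours for these genes are given as a description and without a test. The tumours grew in the flank of C57BL/6 mice from the mouse oral carcinoma line MOC1. Every mouse, controls included, was given the checkpoint antibody anti-PD-1 together with antisense oligonucleotides (ASOs), short strands that bind a chosen transcript, over 32 days. Smyd3 ASOs, directed at the lysine methyltransferase gene Smyd3, were given in 5 mice and control ASOs in 3. Of the 5 Smyd3 ASO tumours, the labels mark 2 as R, for responder (numbered 1 and 3), and 2 as non-R, for non-responder (called 1 and 2 here), while 1 (numbered 2) carries no mark. Response is an outcome and was not randomised, and all tumours come from 1 cell line.

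Corepressors are proteins that transcription factors bring to DNA to keep genes silent, mostly by removing acetyl or methyl marks from histones. SPEN binds RNA and the Notch pathway factor RBPJ and recruits NCoR complexes, in which HDAC3 is the deacetylase. It is best known for the silencing of the inactive X chromosome. The CoREST proteins RCOR1, RCOR2 and RCOR3 hold the histone demethylase LSD1, the product of Kdm1a, together with HDAC1 or HDAC2, and are brought to neuronal genes by REST and to other genes by factors of the SNAG type such as SNAI1 and GFI1.

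Spen (ENSMUSG00000040761.16) lies on mm10 chromosome 4, 141467890 to 141538597, on the minus strand, and Rcor2 (ENSMUSG00000024968.14) on chromosome 19, 7267325 to 7275225, on the plus strand. Since these 2 of the 9 genes stood furthest below controls in the R tumours, the 250 bases before their RefSeq start sites are shown, from build GRCm38.p6. Capitals mark CCCTCC or its reverse complement GGAGGG, an element that human SMYD3 was reported to bind. The Spen stretch is chr4:141538598-141538847 (minus strand) and the Rcor2 stretch is chr19:7267144-7267393 (plus strand).

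Spen: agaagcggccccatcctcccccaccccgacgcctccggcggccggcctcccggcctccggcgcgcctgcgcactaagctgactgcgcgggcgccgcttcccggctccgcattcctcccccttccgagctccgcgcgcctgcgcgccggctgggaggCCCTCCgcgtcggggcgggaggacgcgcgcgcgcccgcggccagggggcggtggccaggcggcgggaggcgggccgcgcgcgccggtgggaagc

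Rcor2: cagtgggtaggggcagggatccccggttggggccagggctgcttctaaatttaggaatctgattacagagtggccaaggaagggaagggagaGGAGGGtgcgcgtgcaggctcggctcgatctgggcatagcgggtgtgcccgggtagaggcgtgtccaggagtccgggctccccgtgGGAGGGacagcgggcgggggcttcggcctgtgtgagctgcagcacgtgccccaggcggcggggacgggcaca

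The Spen stretch holds CCCTCC 1 time, with its first base 94 bases before the start, and the Rcor2 stretch holds it 2 times, 158 and 72 bases before the start. The same 6 letters, searched on both strands, occur in 35.2% of 32851 RefSeq promoter stretches of this length and in 44.0% of the 15420 that belong to tested genes. TGGGAA, the core that RBPJ binds, is found 1 time before Spen, ending close to its start, and not in these letters before Rcor2, against 21.6% of all stretches and 20.8% of those of tested genes. The GC box GGGCGG occurs 2 times before Spen and 1 time before Rcor2 (32.7% of all stretches and 53.3% of those of tested genes), and no match of one motif overlaps another here. GC content is 82.4% before Spen and 67.6% before Rcor2, beside a median of 52.4% over all stretches. Sequences of 7 of the 9 genes were matched in this table, and Rcor1 and Rcor3 hold CCCTCC 3 times each and Kdm1a none. A match of letters is a description of the sequence and shows no binding.

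The libraries held 22103853.1 to 27258700.1 expected counts, with 1.94% to 2.58% of them from mitochondrial genes. Levels are given as CPM, counts scaled to a common library size after TMM normalisation (factors 0.964 to 1.04). Smyd3 itself stood at 8.67 and 4.38 CPM in R tumours 1 and 3, 4.58 CPM in the unmarked tumour, and 9.25 and 4.88 CPM in non-R tumours 1 and 2, against 10.7, 11.9 and 10.6 CPM in control tumours. Every Smyd3 ASO tumour was below every control, as for 5.15% of all tested genes, and the R and non-R tumours overlapped. The fitted log2 fold change of Smyd3 between the arms was −0.80 (SE 0.29), with an FDR of 0.246 by edgeR, so it was not called. The squamous keratinocyte markers that define the labelled cell type were present in all tumours, with Krt14 at 9828 ± 2725 CPM in Smyd3 ASO tumours (SD, n = 5) and 12250.0 ± 1502 CPM in controls (SD, n = 3). Summed over 8 markers they reached 20929 to 24026 CPM in R tumours, 31677 in the unmarked, 26165 to 44043 in non-R and 31364 to 38318 in control tumours. Host tissue also differed between groups. Summed CPM of 10 skeletal muscle markers was 2209 to 11835 in R tumours, 5268 in the unmarked tumour and 659 to 973 in non-R tumours, against 18.1 to 77.4 in controls. T cell markers (8) summed to 76.7 to 160 CPM in R, 65.5 in unmarked and 32.6 to 62.9 in non-R tumours, against 21.8 to 48.3 in controls. B cell markers (6) summed to 11.0 to 21.5 CPM in R, 5.35 in unmarked and 4.24 to 7.01 in non-R tumours, against 3.74 to 9.0 in controls. Adipocyte markers (8) summed to 63.9 to 281 CPM in R, 30.5 in unmarked and 39.1 to 52.2 in non-R tumours, against 17.0 to 42.6 in controls. Schwann cell markers (6) summed to 108 to 117 CPM in R, 54.2 in unmarked and 46.4 to 58.1 in non-R tumours, against 63.7 to 71.5 in controls. The higher sum in R tumours came from Sox10, at 63.2 and 70.2 CPM there and 0.166, 0.178 and 4.08 CPM in controls. For R over control 2 of these markers had a fitted fold change above 0 and 4 below. Hair follicle markers (8) summed to 79.9 to 90.2 CPM in R, 186 in unmarked and 208 to 600 in non-R tumours, against 102 to 145 in controls. Fibroblast markers (8) summed to 4246 to 5800 CPM over the Smyd3 ASO tumours and 6537 to 11668 in controls, while macrophage (469 to 1143 against 496 to 922) and endothelial markers (156 to 302 against 178 to 371) overlapped. The fibroblast sum is mostly 3 collagens, and 4 of the 8 fibroblast markers had a fitted fold change above 0 in Smyd3 ASO tumours and 4 below. The part of these tissues in the results below was not tested except where a value is given.

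Spen was at 48.8 CPM in R tumour 1 and 52.9 CPM in R tumour 3, at 63.7 CPM in the unmarked tumour, and at 108 and 78.1 CPM in non-R tumours 1 and 2, against 148, 105 and 124 CPM in control tumours 1, 2 and 3. Both R tumours were below the other 6, and 4 of the 5 Smyd3 ASO tumours were below all controls, the exception being non-R tumour 1, which lay just above control 2. In the deposited counts this is 1203 and 1462 reads in R tumours, 1642 in the unmarked tumour, 2336 and 1795 in non-R tumours and 2364 to 3561 in controls, so counting error is small beside the differences. Over the whole arm Spen averaged 70.2 ± 23.8 CPM (SD, n = 5) in Smyd3 ASO tumours and 126 ± 21.4 CPM (SD, n = 3) in controls. The mean of the R tumours was 40.5% of the control mean, that of the unmarked tumour 50.7% and that of the non-R tumours 73.9%. Among all tested genes, 1135 (6.71%) had both R tumours below the other 6. In bulk tumour, fewer cells that express a gene and less RNA per cell cannot be told apart.

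Rcor2 was at 11.6 and 8.61 CPM in R tumours 1 and 3, at 11.3 CPM in the unmarked tumour, and at 17.5 and 15.8 CPM in non-R tumours 1 and 2, against 24.3, 33.7 and 21.8 CPM in control tumours 1, 2 and 3. All 5 Smyd3 ASO tumours were below all 3 controls, and both R tumours were below both non-R tumours, but the unmarked tumour lay between the R tumours. RCOR2 is the CoREST scaffold best known from embryonic stem cells and the developing nervous system. The group means were 38.0% of the control mean in R tumours, 42.6% in the unmarked tumour and 62.7% in non-R tumours. Rcor2 is the least abundant of the 9 in CPM, with 238 to 756 reads per tumour.

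Rcor1, the most widely expressed CoREST scaffold, was at 59.3 and 59.5 CPM in R tumours, 63.0 CPM in the unmarked tumour and 82.9 and 73.3 CPM in non-R tumours, against 82.1, 76.0 and 84.1 CPM in controls. The R and unmarked tumours were below all controls and the non-R tumours lay on both sides of the lowest control. Rcor3, the third scaffold, was at 22.1 and 18.2 CPM in R tumours, 18.8 CPM in the unmarked tumour and 19.9 and 22.6 CPM in non-R tumours, against 27.5, 24.3 and 29.0 CPM in controls. Here all Smyd3 ASO tumours were below all controls, and R and non-R tumours overlapped. The 3 scaffold genes did not share 1 order of groups. Rcor2 and Rcor3 were below all controls in every Smyd3 ASO group, and Rcor1 in R and unmarked tumours. Rcor2 and Rcor1 were lower in both R tumours than in both non-R tumours, and Rcor3 was not.

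The enzymes and the large scaffold of the NCoR complex varied less than Spen and Rcor2, with coefficients of variation over the 8 tumours of 6.15% to 16.0%. Ncor1, the scaffold through which HDAC3 is recruited, was at 142 and 153 CPM in R tumours, 163 CPM in the unmarked tumour and 154 and 167 CPM in non-R tumours, against 156, 153 and 173 CPM in controls. Its coefficient of variation was 6.15%, beside 39.3% for Spen and 45.7% for Rcor2, and that of Hdac1 (16.0%) was close to those of Rcor1 (14.6%) and Rcor3 (17.2%). Kdm1a, which encodes the demethylase LSD1, was at 146 and 125 CPM in R tumours, 127 CPM in the unmarked tumour and 147 and 123 CPM in non-R tumours, against 134, 130 and 124 CPM in controls. Smyd3 ASO and control tumours overlapped for both genes, and so did R and non-R tumours for Kdm1a, while both R tumours were just below both non-R tumours for Ncor1. Hdac3, the deacetylase of the NCoR complex, averaged 79.2 ± 7.36 CPM (SD, n = 5) in Smyd3 ASO tumours and 80.6 ± 1.27 CPM (SD, n = 3) in controls.

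Hdac1 and Hdac2, the interchangeable deacetylases of CoREST, were not lower than the control mean in the R mean, the non-R mean or the unmarked tumour. Hdac1 was at 199 and 159 CPM in R tumours, 150 CPM in the unmarked tumour and 190 and 137 CPM in non-R tumours, against 143, 148 and 129 CPM in controls, so that only non-R tumour 2 lay within the control range. Hdac2 ran from 71.4 to 101 CPM over the Smyd3 ASO tumours with a median of 79.7, against 72.2 to 78.1 CPM in controls. Non-R tumour 1 was the highest for Hdac2 and Hdac3, and the ranges of both groups overlapped. Counts of Hdac1 were not whole numbers, as can arise when reads are shared with other loci, which was not tested.

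**Figure D1:**
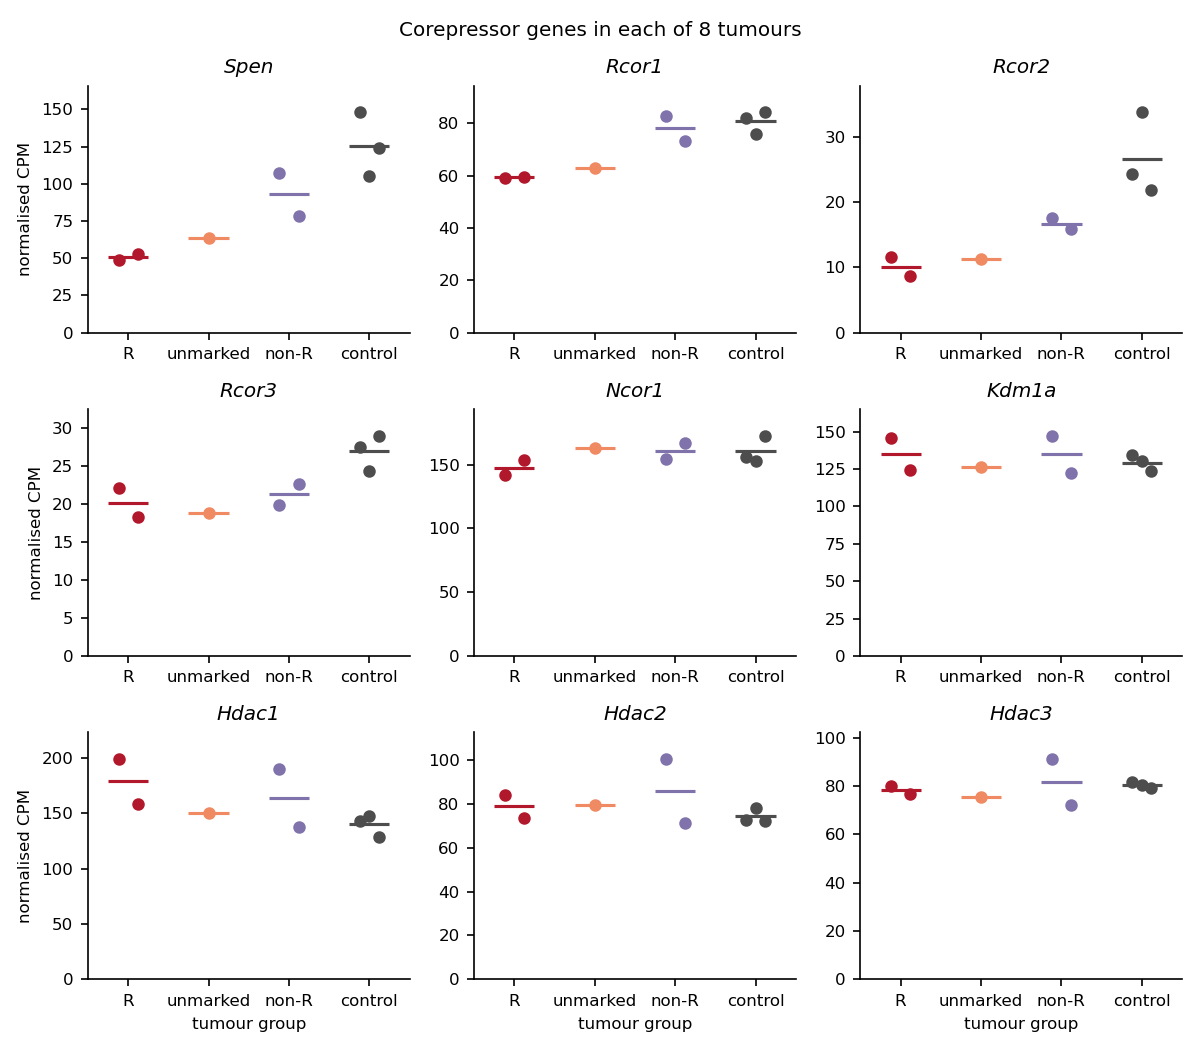
Normalised CPM (vertical axes, from 0) of the 9 genes in each tumour, with a point for each tumour and a bar for the group mean. The Smyd3 ASO groups R (n = 2), unmarked (n = 1) and non-R (n = 2) stand left of the control ASO tumours (n = 3). Spen is at 48.8 and 52.9 CPM in R tumours and 105 to 148 CPM in controls, while Smyd3 ASO and control tumours overlap for Ncor1 and Kdm1a.

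Per length the genes span a wide range. In CPM per 1000 bases of the longest annotated transcript, the means of Smyd3 ASO and control tumours were 82.1 and 68.7 for Hdac1, 44.1 and 42.7 for Kdm1a, and 17.3 and 17.8 for Ncor1. Rcor1 stood at 11.9 ± 1.81 in Smyd3 ASO tumours (SD, n = 5) and 14.2 ± 0.744 in controls (SD, n = 3), Spen at 5.71 ± 1.93 and 10.2 ± 1.74, Rcor2 at 4.60 ± 1.28 and 9.42 ± 2.22, and Rcor3 at 5.36 ± 0.512 and 7.11 ± 0.626. On this scale the neighbours Spen and Rcor2, and Hdac2 and Hdac3 (22.9 ± 1.0 and 22.5 ± 0.356 in controls), did not differ beyond their spread. With the total exonic length in place of the longest transcript, Hdac3 stood above Hdac2 and Rcor1 above Ncor1. Rcor3 depended most on this choice, with a mean over all 8 tumours of 6.02 by longest transcript and 1.67 by exonic length. By exonic length Spen stood at 6.46 and Rcor2 at 5.73.

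Smyd3 ASO tumours were compared with control ASO tumours in a fit over all 16911 genes, in which the R tumours that chose Spen and Rcor2 take part, so the p-values of these genes here are not independent of that choice. Rcor2, Spen and Rcor3 were lower in the Smyd3 ASO arm in fitted fold change, and the other 6 genes were within 0.26 of 0 on the log2 scale, but none of the 9 passed. The log2 fold change was −1.04 (SE 0.24) for Rcor2, with an FDR of 0.109 by edgeR's quasi-likelihood test with Benjamini-Hochberg adjustment. It was −0.84 (SE 0.25, FDR 0.181) for Spen and −0.41 (SE 0.12, FDR 0.169) for Rcor3. For Rcor1 it was −0.26 (SE 0.13), for Hdac1 0.26 (SE 0.14) and for Hdac2 0.14 (SE 0.12), values that were 0.08 and 0.04 with a correction for GC content and transcript length, and for Ncor1, Kdm1a and Hdac3 it lay between −0.04 and 0.05. The median of the 9 was −0.04, beside 0.01 over all tested genes, with 6 of 9 below 0. At an FDR of 0.05 edgeR called 0 genes (0% of those tested, lowest FDR 0.0656), although 2630 (15.6%) had an unadjusted p below 0.05, 1184 of them lower (7% of those tested). Rcor2, Rcor3 and Spen were among these lower genes, with p of 0.00212, 0.00723 and 0.00895. The groups did not overlap for Rcor2 and Rcor3, with both lower, as for 5.15% of all tested genes, and no member was higher without overlap, as were 5.44% of them (exact permutation test over 56 splits, two-sided p = 0.0357 for each, the smallest it can give), and p was 0.0714 for Spen.

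The calls in this comparison depended on the tool and on the tumours used. The R tumours that chose Spen and Rcor2 take part in these fits as well. Passing values of these genes are therefore not independent of that choice. DESeq2 placed Rcor2 (adjusted p = 0.0051), Rcor3 (0.0329) and Spen (0.0392) past the threshold, where it called 1053 genes (6.23%), 385 of them lower (2.28%). edgeR without non-R tumour 1 gave −1.05 for Spen with an FDR of 0.0433, where it called 259 of 16829 genes, 70 of them lower. In the 6 numbered tumours, which leave out both non-R tumours, edgeR gave an FDR of 0.0371 for Rcor2 and 0.0250 for Spen. With a block for the tumour number these were 0.0412 and 0.0619. Of 16733 genes these fits called 286 without the block (48 lower) and 245 with it (36 lower).

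**Figure D2:**
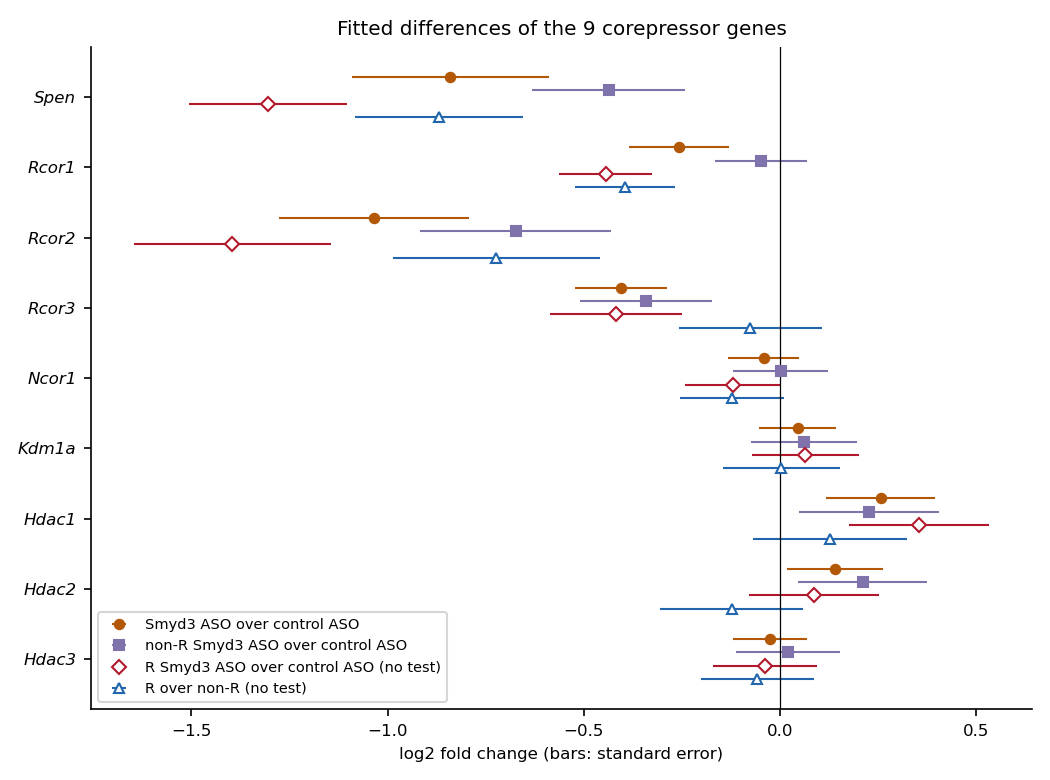
Fitted log2 fold changes (horizontal axis) with standard errors (bars) of the 9 genes. Filled symbols are comparisons that were tested, and open symbols those that involve the R tumours directly and are descriptions. Spen and Rcor2 lie furthest left, at −0.84 and −1.04 for Smyd3 ASO over control ASO, and Ncor1, Kdm1a and Hdac3 lie close to 0 in all 4 comparisons.

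Non-R Smyd3 ASO tumours against controls is the comparison that does not set R tumours on either side. The R tumours still share in its estimate of the spread. The choice of Spen and Rcor2 set R tumours against the others, so the p-values of these genes here are not independent of that choice either. Rcor2 and Rcor3 were lower than in every control in both non-R tumours, as were 12.6% of all tested genes, and Spen, Rcor1, Ncor1, Kdm1a and the 3 deacetylases overlapped. The log2 fold change of Rcor2 was −0.67 (SE 0.24), with an FDR of 0.482 by edgeR. It was −0.44 (SE 0.20, FDR 0.560) for Spen and −0.34 (SE 0.17, FDR 0.598) for Rcor3, and Rcor1 was at −0.05 (SE 0.12). Rcor2 was the only one of the 9 with an unadjusted p below 0.05 (0.0269), where 700 tested genes (4.14%) were lower and 5.1% higher. edgeR called 0 genes in this comparison (0%), with 1562 (9.24%) at an unadjusted p below 0.05, and DESeq2 called 339. The non-R tumours differed from each other: the value of Spen was −0.22 without non-R tumour 2 and −0.68 without non-R tumour 1, and that of Rcor2 was −0.45 without control tumour 2.

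R tumours set against the other groups give the values on which Spen and Rcor2 were chosen, and they carry no test. Over non-R tumours the log2 fold change was −0.87 (SE 0.21) for Spen, −0.72 (SE 0.26) for Rcor2 and −0.40 (SE 0.13) for Rcor1. It was −0.07 (SE 0.18) for Rcor3 and −0.12 (SE 0.13) for Ncor1, and between −0.12 and 0.13 for Kdm1a and the 3 deacetylases. Over controls it was −1.31 (SE 0.20) for Spen, −1.40 (SE 0.25) for Rcor2, −0.44 (SE 0.12) for Rcor1 and −0.42 (SE 0.17) for Rcor3. These comparisons share the R tumours, and those against controls share the controls. Between R and non-R tumours 4 of the 9 genes, Spen, Rcor2, Rcor1 and Ncor1, did not overlap and were lower in R, as were 18.9% of all tested genes, and none of the 9 was higher without overlap, as were 20.3%. Without non-R tumour 1 the difference of Spen was −0.62.

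As a mean, the keratinocyte markers were lower in R tumours than in all others, while non-R and control tumours were alike on average. The mean log2 CPM of the 8 keratinocyte markers was 10.62 and 10.49 in R tumours, 11.01 in the unmarked tumour and 11.52 and 10.92 in non-R tumours, against 11.34, 11.21 and 11.10 in controls. The R tumours had the lowest scores of the 8, by 0.67 on average below the non-R tumours. With this score subtracted, Spen stood at −5.01 and −4.76 in R tumours, −5.01 in the unmarked tumour and −4.77 and −4.63 in non-R tumours, against −4.13, −4.49 and −4.15 in controls. Relative to the keratinocyte markers the R and non-R tumours overlapped, with a mean difference of −0.18, and the R tumours were 0.63 lower than controls. Rcor2 behaved likewise on this scale, with a mean of −7.22 in R, −7.15 in non-R and −6.50 in control tumours. For both genes every Smyd3 ASO tumour was below every control after the subtraction, as for 71 of all tested genes (0.42%). The R tumours that chose both genes are among these tumours, so this separation is not independent of that choice. Before the subtraction Spen overlapped, and non-R tumour 1, which lay above control 2, has the highest score (11.52). The mean difference of the arms after the subtraction was −0.58 for Spen and −0.74 for Rcor2. Rcor1 and Rcor3 showed no such difference, with arm means 0.04 and −0.10 apart and groups that overlapped. After the subtraction their R means were 0.27 and 0.59 above their non-R means, while their fitted log2 fold changes without it were −0.40 and −0.07. The subtraction thus turned the direction of both genes between R and non-R tumours. Whether the score suits genes that cells other than keratinocytes express was not tested.

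**Figure D3:**
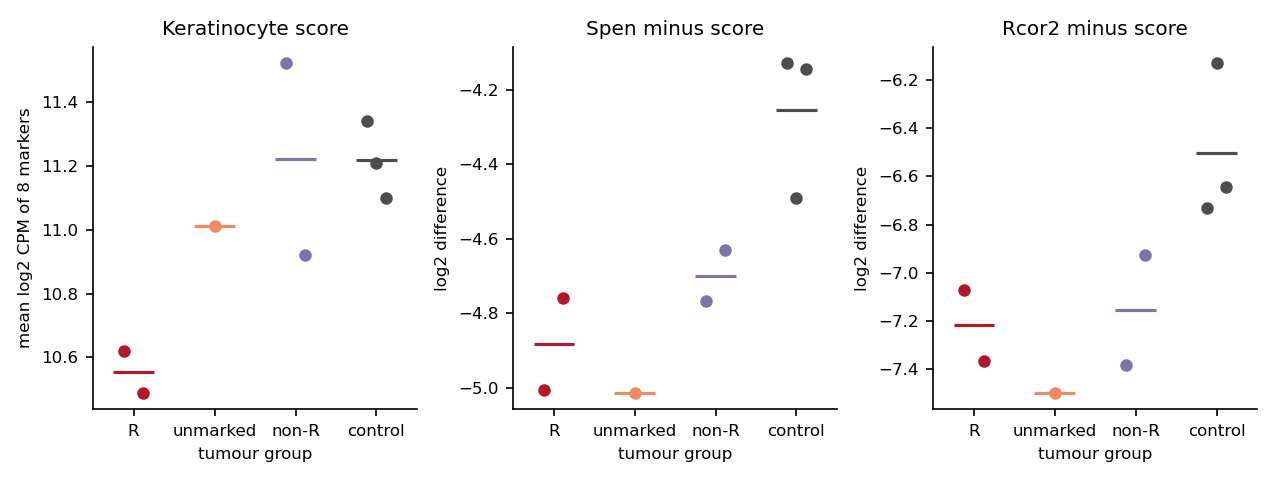
Keratinocyte score (mean log2 CPM of 8 markers, left) and log2 CPM of Spen and Rcor2 minus that score (middle and right) in each tumour, with a bar for the group mean. The axes do not start at 0. The score is lowest in the R tumours (10.62 and 10.49), and after subtraction R and non-R tumours overlap for both genes while all 5 Smyd3 ASO tumours stay below the 3 controls.

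Ratios between members within a tumour do not depend on library scaling. The log2 ratio of Rcor2 to Rcor1 averaged −2.41 ± 0.23 in Smyd3 ASO tumours (SD, n = 5) and −1.62 ± 0.40 in controls (SD, n = 3), and was lower in all 5 than in any control. Rcor2 alone was already lower without overlap, as were 5.15% of all tested genes. Since Rcor2 and Spen were chosen for low values in R tumours, ratios that hold them are not independent of that choice. The log2 ratio of Spen to Ncor1, both large nuclear corepressors, was −1.54 and −1.53 in R tumours, −1.36 in the unmarked tumour and −0.52 and −1.10 in non-R tumours, against −0.08, −0.54 and −0.48 in controls. Only non-R tumour 1 lay within the control range. The log2 ratio of Hdac1 to Hdac2 was 1.02 ± 0.14 in Smyd3 ASO tumours and 0.91 ± 0.07 in controls.

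Spen has one of the longer mRNAs of the table, with 12299 bases in its longest annotated transcript, and long transcripts as a class were slightly lower. Among protein-coding genes with transcripts of 8000 bases or more, the median log2 fold change was −0.07 for Smyd3 ASO over control, −0.14 for R over control and −0.12 for R over non-R, with 66.0% below 0 for R over control. Among 3159 genes under 2000 bases these medians were 0.09, 0.13 and 0.09. Ncor1, with 9037 bases, was at −0.04 for Smyd3 ASO over control and at −0.12 for both R over control and R over non-R, close to the medians of its length class. With a smooth of length and GC content removed from each library, a step added after the data were seen, Spen was at −0.76 for Smyd3 ASO over control and −1.2 for R over control, and Rcor2, whose longest transcript has 2823 bases, at −0.96 and −1.27. Zbtb17, a transcription factor gene whose exons overlap those of Spen on the opposite strand, was at 27 and 22.8 CPM in R tumours, 29.3 in the unmarked tumour and 41.9 and 34.6 in non-R tumours, against 42.0, 32.7 and 35.2 in controls. The library kit marks strand, but whether the counting used it is not given in the sources used here.

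Over the 8 tumours, the 5 genes whose log2 CPM followed Spen most closely among 13541 ranked were Hcfc1 (Pearson r = 0.993), Ptprf (0.982), Kmt2b (0.981), Arhgap35 (0.981) and Huwe1 (0.977). Hcfc1 encodes a chromatin cofactor, Ptprf a receptor tyrosine phosphatase, Kmt2b a histone H3 lysine methyltransferase, Arhgap35 a GTPase-activating protein and Huwe1 a ubiquitin ligase. Hcfc1 averaged 179 ± 29.0 CPM in Smyd3 ASO tumours (SD, n = 5) and 243 ± 14.5 CPM in controls (SD, n = 3). For Rcor2 they were Aldh1l2 (0.988), Kdm4b (0.979), Mink1 (0.976), Tmem238l (0.975) and Col12a1 (0.970). Aldh1l2 encodes a mitochondrial folate enzyme, Kdm4b a histone demethylase, Mink1 a kinase and Col12a1 a fibril-associated collagen. Aldh1l2 was at 11.5 ± 3.11 CPM in Smyd3 ASO tumours and 23.0 ± 2.79 CPM in controls. Within the set, Rcor1 was the gene most like Spen (r = 0.960, rank 20 of the 13541), and Spen the gene most like Rcor2 (r = 0.851, rank 316). Spen and Rcor2 were both chosen for low values in R tumours, so their coefficient is not independent of that choice. Kdm1a (−0.014) and Hdac1 (−0.471) did not follow Spen. These coefficients describe 8 libraries that share their group differences and their scaling.

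The partners of these corepressors were read from 10 lists with 88 genes in the table, of which 79 were tested. By edgeR none of the 79 passed an FDR of 0.05 in Smyd3 ASO against control, in non-R against control or in R against non-R, where 0% of all genes passed (0 genes in each, with 2630, 1562 and 1436 below an unadjusted p of 0.05, and 1053, 339 and 225 calls by DESeq2). In R against control, a comparison added for the partners after its values were seen, edgeR called 280 genes (1.66%). Among them was 1 of the 79, Kmt2d, which fell to 162 and 181 CPM in R tumours, against 287, 282 and 304 CPM in controls, with a log2 fold change of −0.76 (SE 0.12, FDR 0.0371). Its FDR ranged from 0.0373 to 0.206 when 1 tumour was left out, and it was below 0.05 only without the unmarked tumour. The count of 280 was 0 without control tumour 1, 109 without control tumour 2, 6 without control tumour 3, 33 without R tumour 3, and 169 and 185 without non-R tumours 1 and 2. In Smyd3 ASO against control 52 of 79 lay below 0, with a median of −0.07 beside 0.01 over all genes. Below an unadjusted p of 0.05, 16 of them were lower and 4 higher, where 7% of all genes were lower and 8.55% higher.

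Partners of the LSD1 and CoREST core differed little. The median of 9 such genes was −0.07, with 6 below 0, and Zmym3, a zinc finger subunit, was lowest in p at −0.38 (SE 0.11), with Ctbp2 at −0.25 and Zfp217 at −0.15. Without control tumour 2 Ctbp2 was at −0.12, and without control tumour 1 Zfp217 was at −0.07. With the correction for GC content and transcript length Zmym3 was at −0.25. Of the factors that recruit CoREST, 5 of 8 were tested (median −0.09). Snai1, a repressor of epithelial genes, was at −0.86 (SE 0.31), and at −0.37 without control tumour 2, where it was highest. Zeb1 was at −0.38 (SE 0.22) and Gfi1, a repressor of blood cells, at 1.56 (SE 0.54) with 0.933 ± 0.408 CPM in Smyd3 ASO tumours (SD, n = 5) and 0.315 ± 0.0967 CPM in controls (SD, n = 3), beside the T cell markers given above. Neuronal genes known as targets of REST were expressed at low levels, with 7 of 13 tested and list means of at most 4.87 CPM in Smyd3 ASO tumours and 8.62 CPM in controls. Their median was 0.54, with 5 above 0. Stmn2 (1.3, SE 0.41) and Snap25 (1.69, SE 0.58) were higher in every Smyd3 ASO tumour than in any control, as were 5.44% of all tested genes. They stood at 1.85 ± 0.416 and 0.424 ± 0.172 CPM in Smyd3 ASO tumours and 0.749 ± 0.438 and 0.126 ± 0.0708 CPM in controls. Snap25 reached the 0.424 CPM needed for testing in the non-R tumours alone, and Gfi1 in Smyd3 ASO tumours alone. Their higher values, and the list median that includes Snap25, are therefore not independent of that filter. Syn1 was at 1.0 (SE 0.55), and at 0.52 without non-R tumour 2. Chga, the most abundant of the 7 and named for that after its values were seen, was at −0.82. Schwann cell markers, another source of neural transcripts, were at the levels given above.

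In the NCoR complex, the subunits Tbl1x and Tbl1xr1 were at −0.28 (SE 0.11) and −0.06 (SE 0.11), with 4 of 5 genes of the list below 0. Tbl1x was at −0.16 without control tumour 2. The Sin3 complex, another home of HDAC1 and HDAC2, had a median of 0.00 over 12 genes, with Sap130 at −0.22, Brms1 at 0.09 and Rbbp4 at 0.10. Of 9 NuRD subunits 6 lay below 0 (median −0.06), with Mta1 at −0.30 (SE 0.09), Gatad2b at −0.24 (SE 0.10) and Chd3 at −0.31 (SE 0.15). Among other deacetylase scaffolds, 6 of 7 were below 0 (median −0.18). Rere, a scaffold related to the MIER and MTA proteins by its ELM2 and SANT domains, was at 108 ± 17.5 CPM in Smyd3 ASO tumours (SD, n = 5) and 162 ± 21.2 CPM in controls (SD, n = 3), with a log2 fold change of −0.59 (SE 0.15, FDR 0.127). Elmsan1 was at −0.35 and Mier2 at −0.18. With the correction for GC content and transcript length Elmsan1 was at −0.16 and the NuRD gene Chd3 at −0.10.

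The other 8 histone deacetylase genes had a median of −0.35, with 6 below 0. Hdac5 and Hdac4, class IIa enzymes that bind NCoR, were at −0.53 (SE 0.12, FDR 0.111) and −0.43 (SE 0.11, FDR 0.142), and Hdac11 at −0.44 (SE 0.15). Hdac5 averaged 43.8 ± 5.33 CPM in Smyd3 ASO tumours (SD, n = 5) and 63.2 ± 7.65 CPM in controls (SD, n = 3). The groups did not overlap, with Hdac5 lower, as for 5.15% of all tested genes. With the correction for GC content and transcript length Hdac5 was at −0.31 and Hdac4 at −0.28. Of the SPEN relatives and partners, Kmt2d, a histone H3 methyltransferase that can bind SPEN, was at −0.46 (SE 0.15) and Rbm15b, a SPEN family member, at −0.18 (SE 0.14). With the same correction Kmt2d was at −0.83 and Rbm15b at 0.02. Msx2, a homeobox gene whose protein binds SPEN, was at 1.175 and 1.303 CPM in R tumours, 2.72 CPM in the unmarked tumour and 2.26 and 14.9 CPM in non-R tumours, against 0.0416, 0 and 0.210 CPM in controls. Its highest value was in non-R tumour 2, which also had the highest sum of hair follicle markers (600 CPM). Msx2 had enough reads for testing in Smyd3 ASO tumours alone, so its higher values there are not independent of that filter.

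The Notch pathway, through which SPEN acts at RBPJ, had 10 of 12 genes below 0 with a median of −0.35. The receptors Notch1, Notch3 and Notch4 were at −0.64 (SE 0.19), −0.53 (SE 0.14, FDR 0.139) and −0.79 (SE 0.23). Notch3 averaged 79.3 ± 12.4 CPM in Smyd3 ASO tumours (SD, n = 5) and 115 ± 12.5 CPM in controls (SD, n = 3). The groups did not overlap, with Notch3 lower, as for 5.15% of all tested genes. With the correction for GC content and transcript length Notch3 was at −0.26 and Notch4 at −0.48. Notch3 is a receptor of vascular mural cells and Notch4 of endothelium, and the part of the endothelial and fibroblast markers given above was not tested. The value of Notch1 was −0.41 without control tumour 1 and that of Notch4 −0.50 without control tumour 2.

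Between R and non-R tumours, 11 of the 79 partners had an unadjusted p below 0.05, all lower in R, where 8.49% of all genes passed it, 3.75% lower and 4.74% higher. Among those already named, Sap130 was at −0.46 (SE 0.13), Elmsan1 at −0.46 (SE 0.13), Kmt2d at −0.44 (SE 0.13), Syn1 at −1.44 (SE 0.60) and Msx2 at −2.79 (SE 1.02), with FDR of 0.517 to 0.578. The median of the 8 keratinocyte markers in the same comparison was −0.62.

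**Figure D4:**
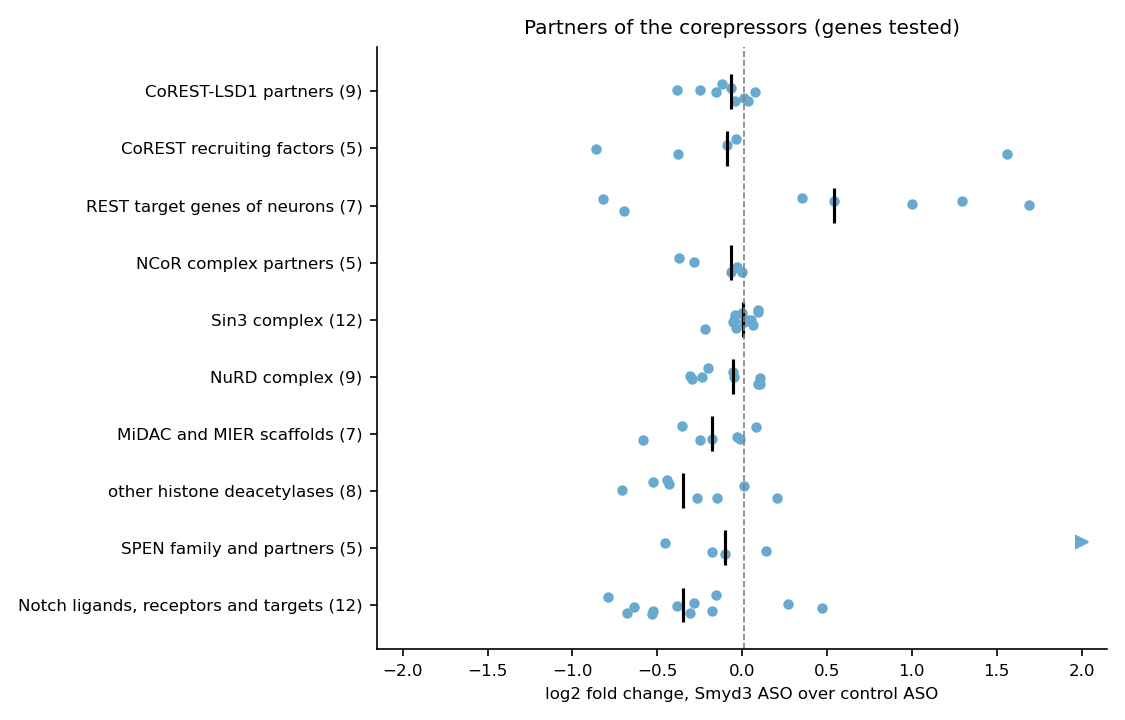
Log2 fold changes of Smyd3 ASO over control ASO (horizontal axis) for the tested genes of 10 partner lists, with the number tested in brackets. Black bars are list medians, the dashed line is the median of all tested genes (0.01), and the triangle is Msx2, whose value lies beyond the axis. The Notch list and the other histone deacetylases have the lowest medians (both −0.35) and the REST targets the highest (0.54).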

How the data were processed

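The values the authors deposited are expected counts of RSEM, not scaled to library size, with a column for each tumour. Build mm10 and the tools STAR 2.7.0f, RSEM 1.3.0, cutadapt 1.18 and bcl2fastq 2.17 are given, without order or settings, in the submitters' processing notes. Per the labels' protocols, libraries came from a TruSeq Stranded mRNA kit. All 55450 identifiers were found in GENCODE M21, which gave coordinates and lengths. Columns were matched to tumours through the sample descriptions.

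Expected counts were rounded, and genes with 0.424 CPM (10 reads in the median library) in at least 2 libraries and 15 reads in all were tested in R 4.3.3. The main test was edgeR 4.0.16 (TMM, robust quasi-likelihood fit, two-sided, Benjamini-Hochberg FDR threshold 0.05). The arms were fitted with treatment as the only term, and the other comparisons in a model of 4 groups over all 8 tumours. Log2 CPM used a prior count of 2. Alternatives were DESeq2 1.42.0, voom of limma 3.58.1, other scalings and filters, tumours left out and a replicate block. The edgeR step was tested on simulated data. Each tumour counts as 1 sample; nothing in the labels says more of their independence than separate numbers, so p-values measure the spread between these tumours.

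The genes described, the partner and marker lists and the naming rule were chosen with earlier results of these data known. The rule names all 9 genes, Smyd3, up to 3 genes per partner list by smallest p in the arm comparison, the 5 genes most correlated with Spen and with Rcor2 (average log2 CPM of at least 0, no predicted-gene names), and up to 2 markers per cell type. Zbtb17 was named after its overlap with Spen was seen. A gene of the partner lists that the rule would name is not reported here by name.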

Additional observations from a re-analysis of the deposited data

How the results depend on the processing

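The count of genes called in Smyd3 ASO against control ASO was 0, and it was 1053 with DESeq2, 52 without a filter on low counts, 25 as the mean of R and non-R tumours, and 0 to 259 when 1 tumour was left out (259 without non-R tumour 1, 5 without control tumour 1 and 0 otherwise). It was 245 with the replicate block and 286 without it in the 6 numbered tumours. Deviations from the arm means had correlations of −0.034, 0 and 0.076 between tumours with the same number in both arms. Between tumours with unlike numbers they ran from −0.15 to 0.137. These few values show no pairing by number and cannot exclude it. In non-R against control the count of 0 became 1 with the GC and length correction, 339 with DESeq2 and 32 without a filter. In R against non-R it became 225 and 7, and 0 to 21 when 1 tumour was left out (21 without R tumour 1). In R against control the count of 280 became 1153 with DESeq2, 499 without a filter, 135 with voom, 179 with only the tumours compared and 0 to 287 when 1 tumour was left out. The cause was not tested.

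Of the 9 genes, Spen, Rcor1, Rcor2, Rcor3, Hdac1 and Hdac2 had the same sign in Smyd3 ASO against control under all 17 alternatives. With the GC and length correction, chosen after seeing the data, Ncor1 (0.019), Kdm1a (−0.061) and the partner Rbm15b (0.020) changed sign, and in non-R against control Hdac3 did (−0.025). With only the tumours compared, Ncor1 was at −0.0091 in non-R against control. When 1 tumour was left out, Ncor1 ranged from −0.070 to 0.0020 and Hdac3 from −0.081 to 0.0052 in Smyd3 ASO against control. In non-R against control the ranges were −0.14 to 0.038 for Rcor1, −0.058 to 0.060 for Ncor1, −0.076 to 0.19 for Kdm1a, −0.025 to 0.44 for Hdac1, −0.057 to 0.44 for Hdac2 and −0.16 to 0.18 for Hdac3. The groups of 2 and 3 tumours limit the precision of these comparisons.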
